A study of Mus musculus with 4 samples.

Results

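Expression of 9 genes that write, erase or read DNA methylation was compared between wt and Top2β-null MEF cells, the fibroblasts of mouse embryos. The genes were chosen by name as Dnmt1, Dnmt3a, Dnmt3b, Dnmt3l, Uhrf1, Tet1, Tet2, Tet3 and Mbd2, which are 9 of the 54842 gene rows in a counts table that also holds 1562 repeat families. The series addressed whether DNA topology takes part in the transcription of major satellite repeats, and for this it sequenced total RNA depleted of ribosomal RNA from untreated cells, with 2 libraries per genotype. Both kinds of cell were labelled MEF and grown in the same medium. The wt cells were labelled wild-type, and the Top2β-null cells were derived from mice without Top2β, an enzyme that passes DNA strands through each other, and came as a gift from other laboratories. The sources cited for wt and Top2β-null cells differ, so the origin of the cells and the loss of Top2β cannot be told apart in any comparison below. Sex, passage and age of the embryos are not given in the labels, nor whether the 2 libraries of a genotype came from separate cultures. The p-values therefore measure the spread between these libraries, which may be technical.

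DNA methylation marks cytosines that are followed by guanine (CpG) and is copied after each round of replication by Dnmt1, which Uhrf1 brings to hemimethylated DNA. Dnmt3a and Dnmt3b set new methylation, and Dnmt3l, which has no catalytic activity, assists them in germ cells and early embryos. The Tet enzymes oxidize 5-methylcytosine, which leads to its loss by dilution or by base excision repair, and Mbd2 binds methylated CpG and recruits the NuRD repressor complex. In dividing fibroblasts, maintenance by Dnmt1 and Uhrf1 preserves an established pattern, which includes silent germline genes and silent endogenous retroviruses.

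Library totals lay between 133116830 and 149647278 counts, and 1.02% to 1.23% of them were mitochondrial. Normalized counts are the deposited counts scaled to the same effective library size. Top2b, the targeted gene, had 18259 and 18465 normalized counts in wt against 3878.6 and 3789.4 in Top2β-null libraries (log2 fold change -2.26, SE 0.0271). Of 10 fibroblast markers, 9 were measured and Lum was at 1 to 4 counts in every library. The summed fibroblast level was 1300500 and 1325200 normalized counts in wt against 885710 and 890680 in Top2β-null MEF cells. By the cut-offs given below, Col1a1 and Col3a1 were lower and Thy1, Pdgfra, Pdgfrb and Dcn higher in Top2β-null MEF cells. The part of this difference between the cells in the results below was not tested, and in bulk RNA fewer cells of a type cannot be told apart from less RNA per cell.

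In Top2β-null MEF cells, the transcripts of Uhrf1, Dnmt3b and Mbd2 fell and those of Dnmt3a, Tet1, Tet2 and Tet3 rose, while Dnmt1 did not pass the test. Log2 fold changes, always Top2β-null over wt, come from edgeR's quasi-likelihood test, and adjusted p-values use Benjamini-Hochberg correction over the 26566 features that reached 10 counts in 2 or more libraries. Dnmt3l reached this filter only through the Top2β-null libraries, so it had to differ and is left out of the counts in this paragraph. Of the 8 other genes, 7 had an adjusted p below 0.05, with 4 higher and 3 lower. In the same fit 65% of all features were called, with 32.5% higher and 32.5% lower, so that the calls were common in the whole table and their number is not particular to these genes. The 2 libraries of a genotype lay apart from those of the other for all 8 genes, and this held for 80.5% of all features. The median absolute log2 fold change was 0.41 over the 8 genes against 0.395 over all features.

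The cut-offs used in the study were stricter, and required, besides the adjusted p, a mean over 100 normalized counts and a log2 fold change beyond 1 in either direction. None of the 9 genes (0 of 9) passed them in edgeR's quasi-likelihood test or in DESeq2, whereas 7 of the 8 genes other than Dnmt3l had an unadjusted p below 0.05 in the edgeR fit. Among all features, 10.2% passed these cut-offs, 5.27% higher and 4.97% lower. Of the 9 genes, 7 had a mean over 100 normalized counts. The other 2, Dnmt3l and Tet1, were those with an absolute log2 fold change above 1. Dnmt3a came nearest among the 7.

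**Figure D1:**
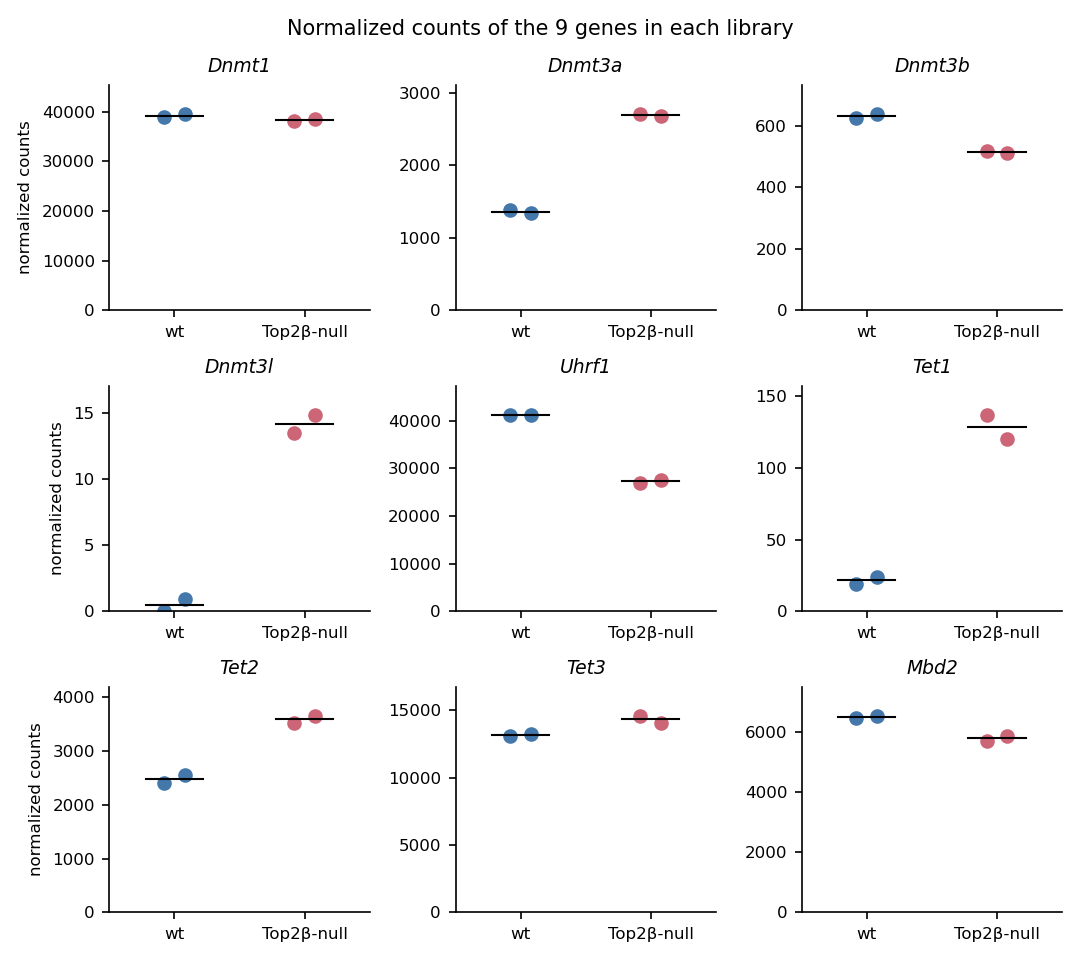
Normalized counts (y axis, from 0, with its own scale for each gene) of the 9 genes in the 2 wt and 2 Top2β-null libraries (x axis). Points are libraries and black lines are group means, and the Uhrf1 points drop from 41212 and 41126 to 27043 and 27583 while the Dnmt1 points stay between 38112 and 39548.

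**Figure D2:**
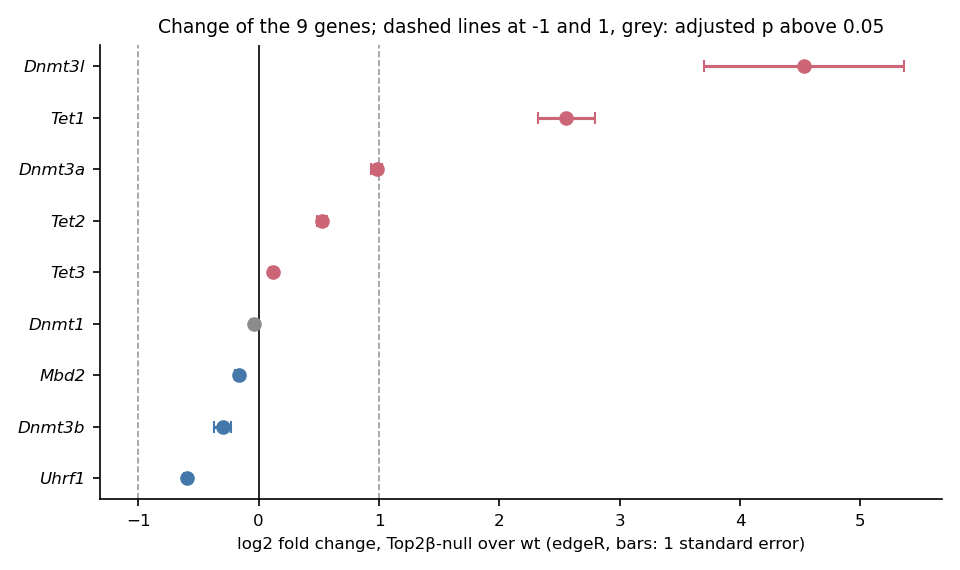
Log2 fold change of each gene, Top2β-null over wt (x axis), fitted with edgeR, with bars of 1 standard error and dashed lines at -1 and 1. Dnmt1 is grey because its adjusted p was above 0.05, Dnmt3a at 0.98 lies just inside the dashed line, and the value of Dnmt3l (4.53) depends on the prior count that edgeR adds, because its wt libraries held 0 and 1 counts.

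Maintenance methylation rests on Dnmt1 and Uhrf1, whose promoters are shown first because a pair of genes that work together gave different results. RefSeq windows on GRCm38.p6, from 250 bases before to 50 bases after the transcript start, were searched on both strands for the E2F-type letters TTTCCCGC, TTTGGCGC and TTTCGCGC, which E2F factors bind in genes of S phase. In the windows below, read 5′ to 3′ on the strand of the gene, capitals mark the matches. The Uhrf1 window is chr17:56304063-56304362 on the forward strand.
Uhrf1: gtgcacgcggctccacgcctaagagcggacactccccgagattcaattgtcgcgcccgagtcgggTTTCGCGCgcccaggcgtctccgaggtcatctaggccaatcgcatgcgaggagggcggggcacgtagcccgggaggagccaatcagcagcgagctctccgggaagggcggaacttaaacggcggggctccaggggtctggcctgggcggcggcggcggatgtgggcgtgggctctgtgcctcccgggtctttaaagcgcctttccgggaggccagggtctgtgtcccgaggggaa
The Dnmt1 window is chr9:20952574-20952873 on the reverse strand.
Dnmt1: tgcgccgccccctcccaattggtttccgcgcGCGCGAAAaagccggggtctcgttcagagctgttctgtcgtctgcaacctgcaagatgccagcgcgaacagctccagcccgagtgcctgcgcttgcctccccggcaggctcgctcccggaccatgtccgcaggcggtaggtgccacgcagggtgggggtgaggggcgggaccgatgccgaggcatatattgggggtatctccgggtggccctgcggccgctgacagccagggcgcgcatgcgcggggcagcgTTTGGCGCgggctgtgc
The Uhrf1 window held TTTCGCGC on the gene strand from position -185, counted from the start site. The Dnmt1 window held TTTCGCGC on the other strand from position -219 and TTTGGCGC on the gene strand from position 34. Any of the 3 motifs was found in 606 of 32851 windows (1.84%), with TTTCCCGC in 1.07%, TTTGGCGC in 0.514% and TTTCGCGC in 0.323%. Both windows held 33 CpG, and 91.4% of all windows held fewer. A second Uhrf1 window and the other Dnmt1 windows held none of these letters. A match describes the sequence and says nothing of a factor at this place.

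Dnmt1 (ENSMUSG00000004099.16, chromosome 9 of GRCm38, from 20907209 to 20959888, reverse strand) had 38914 and 39548 normalized counts in wt against 38112 and 38470 in Top2β-null libraries. All 4 libraries lay close together, with both Top2β-null libraries slightly below both wt libraries. The means were 39231 ± 448 and 38291 ± 253 (SD, n = 2). The log2 fold change was -0.035 (SE 0.0252, adjusted p = 0.241 in edgeR's quasi-likelihood test). Its 95% interval ran from -0.0845 to 0.0145 under the TMM scaling, and with scaling to the total count the value was 0.035, outside this interval.

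Uhrf1 (ENSMUSG00000001228.14, chromosome 17, from 56303321 to 56323486, forward strand), the protein that recognizes hemimethylated CpG, had 41212 and 41126 normalized counts in wt against 27043 and 27583 in Top2β-null MEF cells. The wt libraries were almost equal, and both Top2β-null libraries were far below them. The mean changed by -33.7%, from 41169 ± 60.8 to 27313 ± 382 (SD, n = 2), and the log2 fold change was -0.59 (SE 0.0252, adjusted p = 4.28e-12 in edgeR's quasi-likelihood test). Of the features with 0.5 to 2 times the mean level of Uhrf1, 20.7% had at least as large an absolute log2 fold change.

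The ratio of Uhrf1 to Dnmt1 counts within a library needs no scaling between libraries. On the log2 scale it was 0.083 and 0.056 in wt against -0.495 and -0.480 in Top2β-null MEF cells. Uhrf1 counts, not scaled for exon length, thus exceeded those of Dnmt1 in both wt libraries and were fewer in both Top2β-null libraries. Per kb of exon, Uhrf1 stayed above Dnmt1 in Top2β-null MEF cells (6410 against 5190). The mean log2 ratios differed by -0.56 against a pooled SD of 0.0152 (exact permutation test, two-sided p = 0.33, which is the lowest value 2 against 2 libraries can reach). Uhrf2, the paralog of Uhrf1 that is not able to replace it in maintenance, moved the other way, from 11073 and 10865 to 15706 and 15450 normalized counts (log2 fold change 0.51). The log2 ratio of Uhrf1 to Uhrf2 counts was 1.91 ± 0.0172 in wt against 0.81 ± 0.037 in Top2β-null MEF cells (SD, n = 2), which is a difference of -1.10.

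The genes of S phase, which are expressed with Dnmt1 and Uhrf1 in dividing cells, are given beside this result. Their summed level was 269880 and 272880 normalized counts in wt against 291030 and 294940 in Top2β-null MEF cells, where it was higher. Of 17 such genes, 10 rose and 4 fell by the adjusted p, none passed the cut-offs (0 of 17), and their median log2 fold change was 0.13. Ccne1, which encodes cyclin E1, rose most (0.97), and the 4 that fell were Pcna (-0.33), Cdc45 (-0.25), Cdc6 (-0.21) and Mcm3 (-0.14). Calls were common in the whole table, where 32.5% of all features were higher and 32.5% lower by the adjusted p, and 10.2% passed the cut-offs. For 8 genes of G2 and mitosis, 5 rose and 2 fell, with Aurkb (0.81) changing most. Their sums were 259700 and 268530 in wt against 281560 and 279990 in Top2β-null MEF cells. Both sums were higher in the Top2β-null libraries, in which Uhrf1 was lower, and their part in the fall of Uhrf1 was not tested.

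De novo methylation is set by Dnmt3a and Dnmt3b, and these moved in opposite directions. Dnmt3a (ENSMUSG00000020661.15, chromosome 12, from 3806007 to 3914443, forward strand) had 1388.8 and 1339.7 normalized counts in wt against 2710.4 and 2677.1 in Top2β-null MEF cells. Replicates lay within a few percent of each other, and the Top2β-null libraries stood well above the wt libraries. The mean rose 1.98-fold, from 1364.3 ± 34.7 to 2693.7 ± 23.5 (SD, n = 2), and the log2 fold change was 0.98 (SE 0.0457, 95% interval 0.89 to 1.07, adjusted p = 1.35e-11 in edgeR's quasi-likelihood test). The interval spans the cut-off of 1, and Dnmt3a passed it with scaling to the total count (1.05), with genes only in the fit and without wt replicate 1 (1.008). Among the features with 0.5 to 2 times its mean level, 14.5% changed at least as much.

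The antisense gene Dnmt3aos shares 133 exonic bases with Dnmt3a, 0.799% of the exon sequence of Dnmt3a. It had 14.1 and 18.4 normalized counts in wt against 45.6 and 42.6 in Top2β-null MEF cells, which also was a rise (log2 fold change 1.43, adjusted p = 0.00103 from the same edgeR test). The strand setting of the counting is not given in the sources used here, and if strand was not used, reads in the shared bases cannot be told apart. The part of such reads in the rise of Dnmt3a was not tested.

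Dnmt3b (ENSMUSG00000027478.15, chromosome 2, from 153649450 to 153687730, forward strand) had 625.77 and 637.49 normalized counts in wt against 517.84 and 510.07 in Top2β-null MEF cells. Both Top2β-null libraries were lower, by more than the replicates differed. The mean changed by -18.6%, from 631.63 ± 8.29 to 513.95 ± 5.49 (SD, n = 2), and the log2 fold change was -0.30 (SE 0.0683, adjusted p = 0.00119 in edgeR's quasi-likelihood test). A change of this size was common, since 59% of the features of like level changed at least as much. Dnmt3c, a rodent copy of Dnmt3b that acts in the male germline, had 1 to 3 counts in every library.

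Within a library, the log2 ratio of Dnmt3a to Dnmt3b counts was 1.11 ± 0.0557 in wt against 2.39 ± 0.00283 in Top2β-null MEF cells (SD, n = 2). It was higher in both Top2β-null libraries, by 1.28 against a pooled SD of 0.0394 (exact permutation test, two-sided p = 0.33, again the lowest possible). The ratio of Dnmt3a to Dnmt1 likewise differed by 1.02, from a mean of -4.85 to a mean of -3.83.

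Dnmt3l and Tet1 were the 2 genes of lowest level. Promoter windows of both are shown with their CpG in capitals for this reason and because Dnmt3l lacks a CpG-rich window. Both are from RefSeq on GRCm38.p6, 5′ to 3′ on the strand of the gene. The first Dnmt3l window is chr10:78042037-78042336 on the forward strand.
Dnmt3l: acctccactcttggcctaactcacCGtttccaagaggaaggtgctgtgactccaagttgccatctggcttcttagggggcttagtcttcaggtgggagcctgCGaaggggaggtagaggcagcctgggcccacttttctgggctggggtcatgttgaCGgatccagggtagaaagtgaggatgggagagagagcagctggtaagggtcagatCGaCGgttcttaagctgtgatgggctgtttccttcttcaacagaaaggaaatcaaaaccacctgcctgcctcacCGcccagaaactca
The Tet1 window is chr10:62887275-62887574 on the reverse strand.
Tet1: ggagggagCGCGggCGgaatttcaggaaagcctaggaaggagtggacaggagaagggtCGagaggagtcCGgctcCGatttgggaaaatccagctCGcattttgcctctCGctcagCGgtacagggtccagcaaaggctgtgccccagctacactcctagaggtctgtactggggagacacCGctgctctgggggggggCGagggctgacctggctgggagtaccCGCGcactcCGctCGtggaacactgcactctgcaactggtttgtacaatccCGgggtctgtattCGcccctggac
The Dnmt3l window held 6 CpG, and 2 further Dnmt3l windows held 4 and 3, where the median of all windows was 7 and the quartiles were 3 and 20. The Tet1 window held 17. It lies inside the annotated gene, which begins at 62908996 on the reverse strand, so that this start is not covered. The Tet2 window held 57, 2 overlapping Dnmt3a windows 46 and 47, another Dnmt3a window 18, the Dnmt3b window 30 and the Tet3 window 22. None of the windows of these 6 genes held any of the 3 E2F-type motifs.

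Dnmt3l (ENSMUSG00000000730.13, chromosome 10, from 78041947 to 78063622, forward strand) had 0 and 1 counts in wt against 13 and 15 in Top2β-null libraries. It was close to the limit of detection in wt and low in Top2β-null MEF cells. It passed the filter on low counts only through the Top2β-null libraries and therefore had to differ, so that its adjusted p of 1.60e-04 (edgeR's quasi-likelihood test) is no support on its own. The summed counts, 28 against 1, gave a depth-adjusted ratio of 28.7 with a 95% exact interval from 4.75 to 1170, which covers counting error only. These are the same counts that passed the filter, so the interval is a description and no test. Aire, on the opposite strand, shares 67 exonic bases with Dnmt3l (2.24% of its exons) and had 0 to 3 counts per library.

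The Tet enzymes, which oxidize 5-methylcytosine, all rose, with a size that differed from gene to gene. Tet1 (ENSMUSG00000047146.17, chromosome 10, from 62804570 to 62908996, reverse strand) had 19 and 25 counts in wt against 132 and 121 in Top2β-null MEF cells. The Top2β-null libraries were several times higher, although Tet1 remained a rare transcript in both genotypes. The mean rose 5.88-fold, from 21.7 ± 3.51 to 128.3 ± 11.9 normalized counts (SD, n = 2), and the log2 fold change was 2.55 (SE 0.236, adjusted p = 8.31e-08 in edgeR's quasi-likelihood test). The ratio of summed counts was 5.90 with a 95% exact interval from 4.27 to 8.32. With a mean of 74.97 normalized counts over all libraries, Tet1 stayed under the level cut-off of 100.

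Tet1 and Dnmt3l are known for expression in pluripotent and germ cells, and 10 markers of these cells were therefore read in the same libraries. Of these markers, 6 had fewer than 10 counts in every library, namely Zfp42, Esrrb, Dppa5a, Utf1, Prdm14 and Tfap2c. Of the 4 that were measured, 2 were higher (Nanog and Nanos3) and 1 lower (Klf2) by the adjusted p. Pou5f1 was at 9.32 to 19.8 normalized counts with overlapping groups. Nanog was higher in Top2β-null MEF cells, with 3.03 and 0.97 normalized counts in wt and 43.5 and 42.6 in Top2β-null, but it passed the filter only through the latter, and it has processed copies in the genome with which it can share reads. Nanos3, a germ cell gene, had 15.1 and 10.6 normalized counts in wt against 22.8 and 32.7 in Top2β-null MEF cells (log2 fold change 1.11, adjusted p = 0.0208 in edgeR's quasi-likelihood test). The summed level was 2385 and 2327.8 in wt against 570.66 and 558.60 in Top2β-null MEF cells, most of it from Klf2, which fell (log2 fold change -2.31). Their part in the rise of Tet1 and Dnmt3l was not tested.

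Tet2 (ENSMUSG00000040943.12, chromosome 3, from 133463679 to 133545139, reverse strand) had 2411.2 and 2550.0 normalized counts in wt against 3516.1 and 3646.7 in Top2β-null MEF cells. Replicates differed more than for most of the 9 genes, yet the groups were well apart. The mean rose by 44.4%, from 2480.6 ± 98.1 to 3581.4 ± 92.4 (SD, n = 2), and the log2 fold change was 0.53 (SE 0.0416, adjusted p = 1.10e-08 in edgeR's quasi-likelihood test). The antisense gene Gm42567, with 43 shared exonic bases (0.255% of Tet2 exons), had 0 to 7 counts per library.

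Tet3 (ENSMUSG00000034832.15, chromosome 6, from 83362373 to 83459084, reverse strand) had 13114 and 13235 normalized counts in wt against 14573 and 14082 in Top2β-null MEF cells. The Top2β-null libraries were a little higher and differed from each other by more than the wt libraries did. The mean rose by 8.74%, from 13174 ± 85.4 to 14327 ± 347 (SD, n = 2), and the log2 fold change was 0.12 (SE 0.0259, adjusted p = 6.62e-04 in edgeR's quasi-likelihood test). With scaling to the total count it was 0.19. Of the features of like level, 72.9% changed at least as much. The log2 ratio of Tet2 to Tet3 counts was -2.41 ± 0.0477 in wt against -2.00 ± 0.0722 in Top2β-null MEF cells (SD, n = 2), a difference of 0.41.

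Mbd2, the reader among the 9 genes, is a forward-strand gene of chromosome 18 (ENSMUSG00000024513.16, 70568189 to 70626131). Its libraries held 6469.7 and 6546.9 normalized counts in wt against 5725.2 and 5892.0 in Top2β-null MEF cells. Both Top2β-null libraries were lower, by several times the distance between replicates. The mean changed by -10.7%, from 6508.3 ± 54.6 to 5808.6 ± 118 (SD, n = 2), and the log2 fold change was -0.16 (SE 0.0284, adjusted p = 9.38e-05 in edgeR's quasi-likelihood test). With scaling to the total count it was -0.094 (adjusted p = 0.0101 in edgeR). As for Tet3, changes of this size were common, with 66% of the features of like level changing at least as much.

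**Figure D3:**
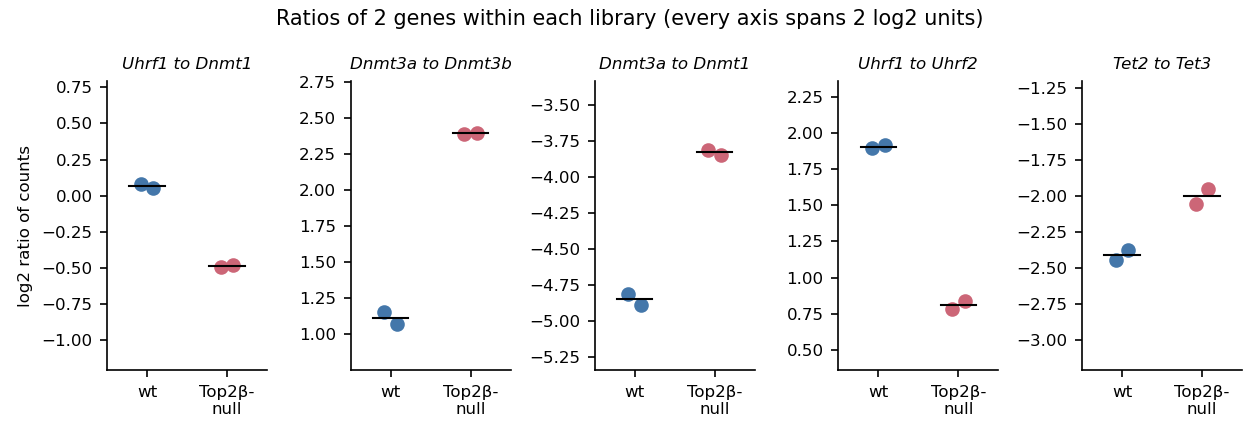
Log2 ratios of the counts of 2 genes within each library (y axis, each panel spanning 2 log2 units) for wt and Top2β-null libraries (x axis), with points for libraries and lines for means. The difference between genotypes was -0.56 for Uhrf1 to Dnmt1, 1.28 for Dnmt3a to Dnmt3b, 1.02 for Dnmt3a to Dnmt1, -1.10 for Uhrf1 to Uhrf2 and 0.41 for Tet2 to Tet3.

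Levels of different genes were compared as normalized counts per kb of exon. In wt MEF cells the order of these levels was Uhrf1 (9670 ± 14.3), Dnmt1 (5320 ± 60.8), Mbd2 (2020 ± 17.0), Tet3 (789 ± 5.12), Tet2 (147 ± 5.82), Dnmt3b (124 ± 1.62), Dnmt3a (82.0 ± 2.09), Tet1 (1.40 ± 0.227) and Dnmt3l (0.162 ± 0.229), all with SD and n = 2. The maintenance genes were thus the most abundant, and the de novo and assisting genes among the rarest. In Top2β-null MEF cells the order was the same except for Dnmt3a, at 162 ± 1.41 per kb, and Dnmt3b, at 101 ± 1.08 (SD, n = 2), which changed places. Uhrf1 remained the highest at 6410 ± 89.6 per kb, above Dnmt1 at 5190 ± 34.3. No pair of neighbours in either order overlapped between libraries. With the length of the longest transcript in place of all exons, Dnmt3b and Dnmt3a in wt came close, at 146 ± 1.92 and 141 ± 3.59 per kb, and again changed places in Top2β-null MEF cells, at 119 and 278.

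**Figure D4:**
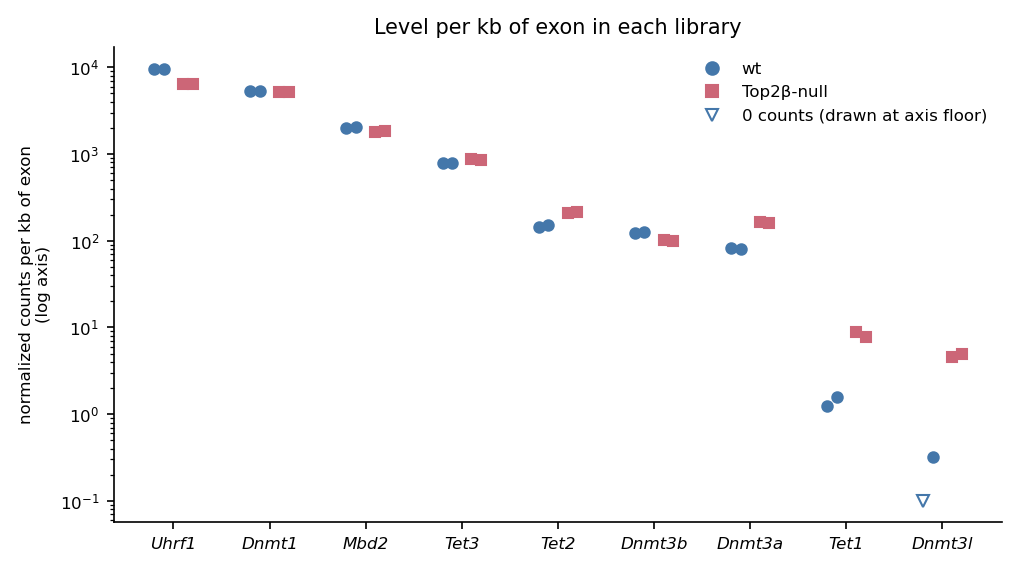
Normalized counts per kb of exon (y axis, log scale) of the 9 genes (x axis, ordered by the wt level) in each library, with circles for wt, squares for Top2β-null and an open triangle at the axis floor for a library with 0 counts. Levels run from 9670 for Uhrf1 to 0.162 for Dnmt3l in wt, and Dnmt3a lies below Dnmt3b in wt and above it in Top2β-null libraries.

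Shares of the per-kb levels describe the make-up of each family in a library. Among the Tet genes, Tet3 held 84.5% and 83.8% in wt and 80.1% and 79.0% in Top2β-null MEF cells. The share of Tet2 was 15.4% and 16.0% in wt and 19.1% and 20.3% in Top2β-null, while Tet1 stayed under 1% in every library, with a highest share of 0.811%. Among the Dnmt genes, Dnmt1 held 95.1% to 96.3% in every library. Dnmt3a had 1.52% and 1.45% in wt against 3.0% and 2.94% in Top2β-null MEF cells, and Dnmt3b had 2.24% in both wt libraries against 1.87% and 1.82%. The prevailing enzyme of each family thus stayed the same in both genotypes.

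The other genes of the pathway were read from lists, with 60 of 66 genes measured. Of these, Neil2 and Cxxc4 passed the filter only through the Top2β-null libraries, so they had to differ and are left out of the counts. Of the 58 others, 23 rose and 23 fell by the adjusted p, which is 79.3% in either direction. For all features this share was 65%, but these include features below 10 counts in some libraries, unlike the 58 genes. The shares are therefore not from like sets. The median log2 fold change of the 58 genes was -0.0109 against 0.00268 over all features. Among 10 genes that encode other methyl-CpG readers or further proteins of the MBD family, not all of which bind methylated CpG, 3 rose and 5 fell, and Zbtb4, a zinc finger protein that binds methylated CpG, passed the cut-offs (-1.48). Among 11 NuRD subunits, the partners of Mbd2, 5 rose and 5 fell. There the helicase Chd3 fell (-1.79), while its paralog Chd4, named after its value was seen, rose (0.62). Of 10 measured cofactors of maintenance and targeting, 5 rose and 2 fell, and the largest change was that of Cdca7 (-0.37), the partner of the remodeller Hells.

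Downstream of the Tet enzymes, 5 of 13 genes for the removal of oxidized bases rose and 6 fell. Apobec1, a cytidine deaminase known for editing RNA, went from 48.4 and 37.7 normalized counts in wt to 783 and 733 in Top2β-null MEF cells (log2 fold change 4.14). Tdg, the glycosylase that removes the oxidation products of the Tet enzymes, and Neil2, another glycosylase, were named after their values were seen. Tdg fell (-0.83), whereas Neil2 had 0 counts in both wt libraries but 47 and 40 in Top2β-null libraries, at least 14.9-fold higher than the floor of 3 counts per library. Of 6 Tet cofactors and genes that supply 2-oxoglutarate, the cosubstrate of the Tet enzymes, 3 rose and 2 fell. Cxxc5, a CXXC protein that binds Tet2, rose from 108 and 120 to 564 and 645 normalized counts (2.41). Of 7 measured genes of the methyl donor cycle, 2 rose and 3 fell, with Ahcy, which clears the product inhibitor of methyltransferases, changing most (-0.98). The tRNA methyltransferase Trdmt1 did not pass the test (-0.034).

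**Figure D5:**
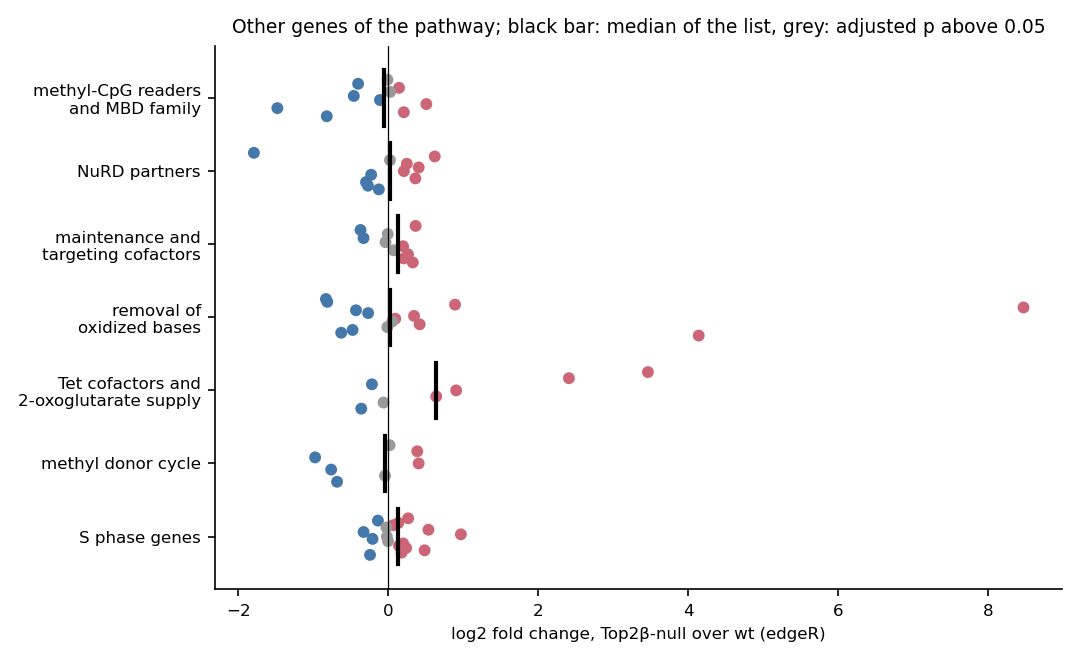
Log2 fold changes, Top2β-null over wt (x axis), of the measured genes in 6 pathway lists and the S phase list (y axis), with black bars for list medians and grey points for an adjusted p above 0.05. The bars count Neil2 and Cxxc4, which had to differ. Without them the median was -0.0142 in place of 0.0186 for the removal of oxidized bases. For the Tet cofactors and 2-oxoglutarate supply it was 0.286 in place of 0.638. The rising and falling genes lie on both sides of 0 in all lists, and the point farthest right is Neil2, whose fitted value depends on the prior count because its wt libraries held 0 counts.

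Transcripts that DNA methylation is known to keep silent were read as well, since changes in the 9 genes give no measure of methylation itself. Of 14 such germline genes, 6 had 0 counts in all 4 libraries and 11 had fewer than 10 counts in every library. Only 3 were measured. Sycp1, a protein of the synaptonemal complex, had 0 counts in both wt libraries but 179 and 251 in Top2β-null libraries, at least 73.2-fold higher than the floor of 3 counts per library. It passed the filter only through the Top2β-null libraries and so had to differ. Sycp3 (log2 fold change -0.27, adjusted p = 0.0928 in edgeR's quasi-likelihood test) and Brdt (0.11) did not pass. Sycp3 was not silent in wt, with 176.6 and 178.7 normalized counts. Of 5 families of IAP and related retroviruses, 4 were higher by the adjusted p, as were 32.5% of all features. Except for MMERVK10C-int, these rises were 0.088 to 0.134, and 67.5% to 71.7% of features of like level changed at least as much. MMERVK10C-int was the only one past the cut-offs (1.10), whereas IAPEz-int, the internal part of IAP elements, was at 0.088 and IAPLTR1a_Mm at -0.056. Counts were already high in wt, with 120560 and 121200 normalized counts for IAPEz-int and 14656 and 15129 for MMERVK10C-int. Methylation of the DNA of these genes and families is not measured here.

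Markers of other cell types were read last. Of 10 leukocyte markers, 5 were measured, and Tyrobp and Adgre1 were at 0 in all 4 libraries. Itgam passed the filter only through the Top2β-null libraries and had to differ. Of the 4 others, Csf1r and Fcer1g were higher and Cd68 lower by the adjusted p (log2 fold change -2.49 for Cd68). The sum of all 10 was 2450.6 and 2520 normalized counts in wt against 1370.2 and 1379.7 in Top2β-null libraries, and Cd68 alone went from 1641.1 and 1688.4 to 302.4 and 289.2. Of 6 epithelial markers, 3 were measured (Cdh1, Krt8 and Cldn4). All 3 passed the filter only through the wt libraries and therefore had to be lower in Top2β-null MEF cells. Cldn4 was at -3.76, and the sums were 79.7 and 91.8 in wt against 20.7 and 21.8 in Top2β-null libraries. Of 5 endothelial markers, 4 were measured. Kdr rose (1.54), while Tek (-2.54) passed the filter only through the wt libraries and had to be lower. The sums of all 5 were 164.5 and 162.3 in wt against 251.7 and 258.5 in Top2β-null libraries. The part of these markers in the changes of the 9 genes was not tested.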

How the data were processed

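RNA libraries without ribosomal RNA were sequenced as 150 bp paired-end reads. The authors trimmed the reads with Trim Galore! (0.4.0), aligned them to mm10 with STAR (2.5.2) and counted them with TEtranscripts (1.5.1) against Gencode M9 and repeat annotation. They deposited raw counts, 1 column for each library. Mode and strand setting of the counting are not given in the sources used here. Libraries were grouped by the labels.

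The 9 genes, the pathway lists and the marker lists were chosen with earlier results of these data known. Named from each list were the genes past the study cut-offs or, where none passed, the gene with the largest change and an adjusted p below 0.05. Exceptions are marked, and Uhrf2, Nanog, Pou5f1, Nanos3, Csf1r, Itgam, Fcer1g, Tek, Cdh1, Krt8, Pcna, Cdc45, Cdc6, Mcm3, Cxxc4, Sycp3, Brdt, Trdmt1 and the IAP families were also named after their values were seen. Symbols, positions (GRCm38) and exon lengths are from GENCODE M21, and promoter windows from RefSeq, where 8 of the 9 genes matched.

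The filter kept features that reached 10 counts in 2 or more libraries. edgeR 4.0.16 (R 4.3.3, limma 3.58.1) computed TMM factors over genes and repeats together and fitted its quasi-likelihood model without covariates other than genotype. The test was checked on simulated data. The spread of replicates exceeded sampling noise (ratio of chi-square to its degrees of freedom, 3.65 for wt and 5.07 for Top2β-null), and the common biological coefficient of variation was 2.59%. Exact intervals cover counting error only. Alternatives were DESeq2 1.42.0, TMM factors from genes only, total-count scaling, other filters on low counts, genes only in the fit, a replicate block, transcript length and leaving out each library.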

Additional observations from a re-analysis of the deposited data

How the results depend on the processing

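Of 55 log2 fold changes of the 8 genes other than Dnmt3l recomputed with all libraries, 54 kept their direction and their side of the threshold. The exception was Dnmt1, at 0.035 (adjusted p = 0.263 in edgeR) when scaled to the total count. This scaling moved the median of all features to 0.0724 and made Uhrf1 -0.52, Tet3 0.19 and Mbd2 -0.094. All 32 values of these 8 genes with 1 library left out kept direction and side, with Dnmt3a at 0.956 to 1.008. Dnmt3l, whose direction was set by the filter, ranged from 3.71 to 6.82, so that its size is not fixed at this depth. With at least 100 counts in every library, 3 of the 9 genes were higher by the adjusted p in place of 5 (Dnmt3l counted), because this filter removes Dnmt3l and Tet1, and 825 features in place of 1399 passed the study cut-offs as higher. Dnmt3a passed these cut-offs as the 1 higher gene with scaling to the total count and with genes only in the fit. When libraries were omitted one at a time the number was 0 to 1, and it was 1 without wt replicate 1. Deviations of libraries with the same number had a correlation of 0.0207 over 17952 features. This shows no shared deviation, but whether libraries with the same number were prepared together is not known. With the replicate block Uhrf1 was at -0.59 and Dnmt3a at 0.98. Of 308 counts over the pathway lists, with Neil2 and Cxxc4 counted, 307 stayed within 1.5 times the count from the unaltered analysis, and with at least 100 counts in every library Apobec1 was no longer tested. Levels per kb depend on the length used, and with 2 libraries per genotype the lowest p of an exact permutation test is 0.33.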
